A study of Mus musculus with 6 samples.

Results

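ATF4 targets and cytosolic tRNA synthetases are 40 genes listed by symbol, a list made with earlier results of these data known, and all 40 have a row in the table of 23337 genes. They comprise 4 transcription factors, 8 feedback and stress effectors, 7 enzymes of amino acid synthesis, 6 amino acid transporters and 15 tRNA synthetases. The cells were mouse granulocyte-monocyte progenitors of strain C57BL6 taken from bone marrow and carrying ER-HOXA9. That protein joins the hormone-binding part of the estrogen receptor to HOXA9, a homeobox factor, and keeps such progenitors immature for as long as estrogen is supplied. Every group grew with 0.5 µM beta-estradiol, stem cell factor, serum and glutamine, so no group shows the cells without active HOXA9. Untreated cells were collected at day 0, and the other cells after 3 days with DMSO (vehicle) or with 3 drugs given together. These were 200 nM GSK-LSD1 against the demethylase LSD1, 5 µM mercaptopurine, which interferes with purine metabolism, and 5 µM cerulenin against fatty acid synthase. No group received a single drug, so their contributions cannot be told apart. Each group had 2 biological replicates. The labels do not say whether these were separate animals, clones or cultures, so p-values measure the spread between these libraries only.

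ATF4 is the main transcription factor of the integrated stress response. When amino acids run short, misfolded protein accumulates in the endoplasmic reticulum or haem is lacking, 1 of several kinases phosphorylates the initiation factor eIF2. Most translation then slows while that of the Atf4 message rises, so the Atf4 mRNA level measured here is only part of ATF4 control and ATF4 protein was not measured. ATF4 binds DNA with a C/EBP-family partner at a composite element and raises genes that import amino acids, make them and load them onto tRNA, together with genes that feed back on the response. In blood-forming progenitors the pathway is known for its part in survival under nutrient and protein-folding stress.

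RefSeq promoter windows (assembly GRCm38.p6) of the members were searched for that element. The search was for TGATGNAA, a core of the C/EBP-ATF response element, on both strands (reverse TTNCATCA), in windows of 250 bases before and 50 bases after the start. A window was found for 31 of the 40 members, and 11 of these 31 (35.5%) held the letters, beside 1219 of 27025 genes with a window (4.51%). By role these were 0 of 4 transcription factors, 3 of 7 effectors, 2 of 6 enzymes, 1 of 4 transporters and 5 of 10 synthetases. Outside the members, the letters were held by 0 of 14 mitochondrial synthetases, 0 of 4 remaining cytosolic synthetases and 5 of 20 other reported ATF4 targets. Most members were listed as ATF4 targets, so a share above that of all genes follows in part from the choice of the list. No support is drawn from it. A match describes the letters and is not a measured binding site. The 6 stretches shown belong to members that were lower with the drugs than with vehicle and have the element before the start, in capitals, written 5′ to 3′ on the gene's strand.
Asns, chr6:7693210-7693252, minus strand: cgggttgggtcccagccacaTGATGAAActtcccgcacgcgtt
Chac1, chr2:119351029-119351076, plus strand: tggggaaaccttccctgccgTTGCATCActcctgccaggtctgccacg
Slc7a11, chr3:50443633-50443699, minus strand: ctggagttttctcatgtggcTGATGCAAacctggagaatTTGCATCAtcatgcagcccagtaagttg
Aars, chr8:111033710-111033757, plus strand: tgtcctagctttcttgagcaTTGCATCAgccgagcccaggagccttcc
Gars, chr6:55037951-55037998, plus strand: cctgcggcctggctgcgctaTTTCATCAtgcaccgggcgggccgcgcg
Tars, chr15:11399659-11399693, minus strand: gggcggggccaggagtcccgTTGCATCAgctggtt
Asns holds the form TGATGAAA, and Slc7a11 holds the pair TGATGCAA and TTGCATCA, which are the same letters on opposite strands. Chac1, Aars and Tars share TTGCATCA, and Gars holds TTTCATCA. Trib3, Iars and Yars hold the element only after the start, Aars holds another there, and Vldlr and Pycr1 hold it before the start.

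Total counts per library ranged from 11305666 to 16948697. Rn45s, the ribosomal RNA precursor, took 20.45% and 24.64% of the counts at day 0 and 14.62% to 16.12% in the day 3 libraries, so levels are given as CPM, the reads of a gene relative to the reads of its library, after scaling by the trimmed mean of M values (TMM). Replicates differed most at day 0, where the chi-square of their counts over its degrees of freedom was 14.51, against 5.84 for vehicle and 1.882 for the drugs. The progenitor markers Kit, Cd34, Mpo and Myb were present in every library. The 10 markers of that list summed to 8886 and 9202 CPM at day 0, 9867 and 10140 in vehicle and 11840 and 12410 with the drugs. They did not move alike. Mpo read 3495 and 4027 CPM at day 0, 4647 and 4646 in vehicle and 6517 and 6954 with the drugs. Ctsg read 1148 and 945, 889 and 1022, and 707 and 770 CPM in that order. Of 9 mature neutrophil markers, Camp and Retnlg were at 0 throughout. The sum of that list was 5.38 to 15.7 CPM without drugs and 3492 and 3808 CPM with them, almost all from Mmp8 (3484 and 3800 CPM). The 8 macrophage markers summed to 20.9 to 33.6 CPM without drugs and 77.6 to 78.6 with them, with C1qa, C1qc and Mertk at 0. The 6 mast cell and basophil markers summed to 969 to 1155 CPM at day 0, 542 to 558 in vehicle and 1214 to 1302 under the drugs, and Fcer1a was at 0. The 8 erythroid and megakaryocyte markers summed to 33.5 to 45.0 CPM at day 0, 16.5 to 21.2 in vehicle and 14.5 to 18.3 with the drugs, where the last 2 ranges overlap, and Hbb-b1 and Hba-a1 were at 0. The 8 stromal and endothelial markers summed to 249 to 256, 191 to 202 and 277 to 280 CPM in the same order, with Col3a1 and Cdh5 at 0. The 8 lymphocyte markers summed to 11.8 to 16.1 CPM in all libraries, with Cd3e, Cd3d and Cd4 at 0. Below 1 CPM in every library were 5 neutrophil, 6 macrophage, 5 erythroid and megakaryocyte, 5 stromal and endothelial and 6 lymphocyte markers. The sums of these lists thus rest on few genes and do not by themselves show that such cells were present. These are bulk samples, in which fewer cells of a type and less RNA per cell cannot be told apart. The part of these other markers in the results below was not tested.

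The first comparison asks how the members stood with the 3 drugs against vehicle at the same day. Most were lower with the drugs, and of the 5 roles the synthetases had the highest share of members lower. Of the 40 members 39 passed the filter on low counts, and 23 of these were lower at an adjusted p below 0.05, while 13.8% of all 11283 tested genes were lower. Slc38a2 alone was higher, where 18.1% of all genes were. The median log2 change over the 39 was -0.34, beside 0.00075 over all tested genes. Both drug libraries lay below both vehicle libraries for 33 members and above for 1, against 33.7% and 35.1% of all genes. The changes were small: against a minimum change of 1.5-fold, Asns and Trib3 alone were called, both lower. Of all 11283 tested genes, 115 (1.02%) were lower and 599 higher on that test. All members together summed to 5529 and 5173 CPM with vehicle and 4356 and 4347 CPM with the drugs, after 6321 and 6122 CPM at day 0. Stc2, which encodes the secreted glycoprotein stanniocalcin 2, had 0 counts in all 6 libraries and was the only untested member.

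**Figure D1:**
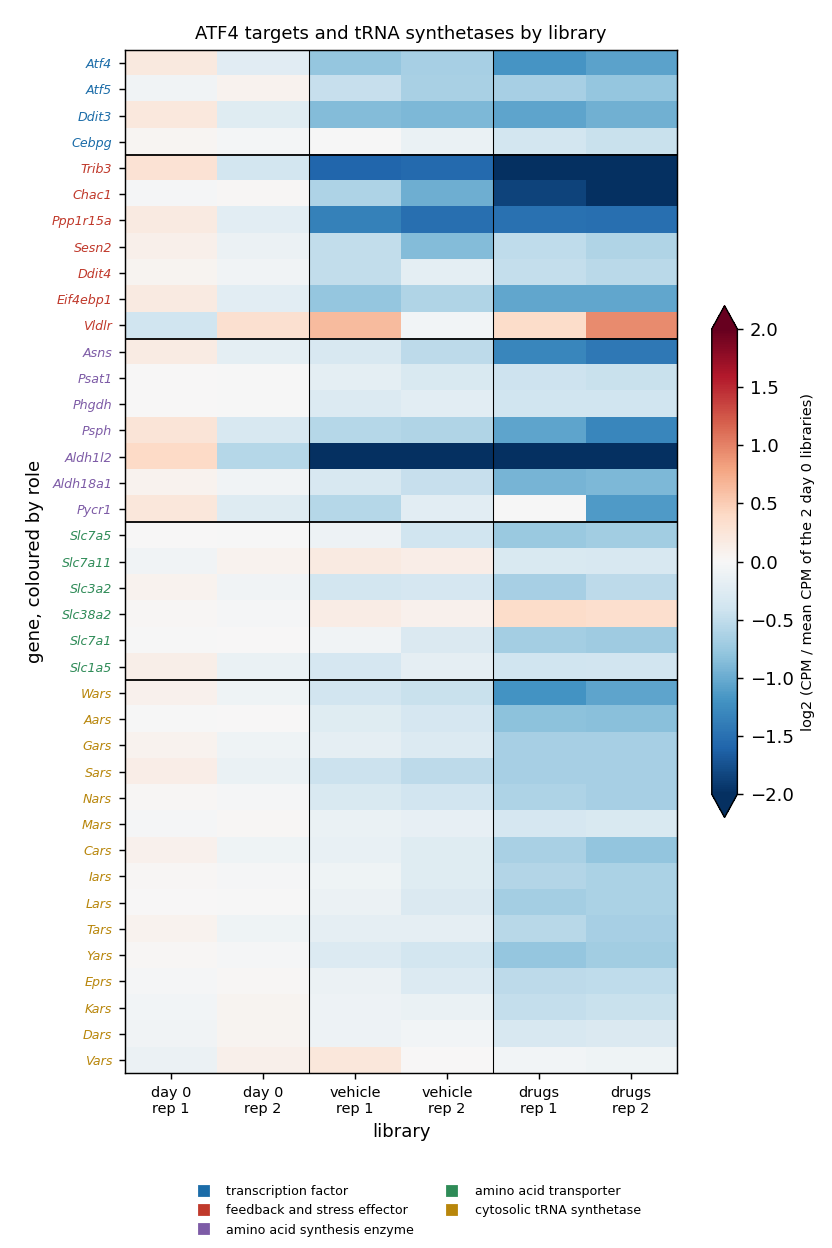
Heat map of the 39 tested members (rows, by role) in the 6 libraries (columns), coloured by log2 of the CPM over the day 0 mean of that gene, with the scale clipped at 2 in each direction. Most members turn to deeper blue (lower) from day 0 to vehicle to the drugs. Slc38a2 and Vldlr, which rests on few reads (0.658 to 1.68 CPM), stand red (higher) with the drugs.

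Among the 4 transcription factors, Atf4 and Cebpg were lower with the drugs (50%, beside 13.8% of all tested genes). Atf4 (chr15:80255184-80257541, mm10, plus strand) read 255 and 191 CPM at day 0, 130 and 141 in vehicle and 98.4 and 107 with the drugs. The 3 groups did not overlap, and the day 0 replicates were the furthest apart. The log2 change from vehicle to drugs was -0.40 ± 0.114 (SE; adjusted p = 0.0164). It was not called without vehicle replicate 2 (adjusted p = 0.0667) or without drug replicate 1 (adjusted p = 0.137). Cebpg encodes C/EBP gamma, a dimer partner of ATF4. It read 108 and 102 CPM at day 0, 104 and 95.7 in vehicle and 81.5 and 77.6 with the drugs, so that only the drug libraries stood low. Its log2 change was -0.33 ± 0.0731 (SE; adjusted p = 0.00407), not called without drug replicate 2 (adjusted p = 0.0711).

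Ddit3 and Atf5 did not pass the test between drugs and vehicle. Ddit3 encodes CHOP, a C/EBP-family factor linked to cell death under long stress. It read 79.3 and 58.3 CPM at day 0, 37.5 and 37.0 in vehicle and 33.2 and 35.2 with the drugs. The 4 day 3 libraries lay close together and far below day 0, and the log2 change from vehicle to drugs was -0.12 with a 95% interval of -0.40 to 0.15. Atf5, a factor related to ATF4 and controlled by translation in a similar way, read 81.3 and 89.1 CPM at day 0, 61.9 and 54.2 in vehicle and 53.8 and 50.02 with the drugs. Its log2 change was -0.16, with an interval of -0.35 to 0.026. The exons of Ddit3 and Mars share 68 bp on opposite strands, and those of Atf5 and Nup62 share 64 bp. Whether the counting used strand is not stated, so reads from those stretches cannot be assigned with certainty.

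Of the feedback and stress effectors, Trib3 and Chac1 were lower with the drugs (2 of 7 tested, 28.6%, beside 13.8% of all tested genes). Trib3 (chr2:152337425-152344060, minus strand) encodes a pseudokinase that is induced by ATF4 and CHOP and dampens them. It read 34.8 and 22.0 CPM at day 0, 9.49 and 9.70 in vehicle and 4.00 and 3.29 with the drugs. The groups were well apart, and the drug level was 2.65-fold lower than vehicle, a log2 change of -1.40 ± 0.260 (SE; adjusted p = 0.00126). Chac1 encodes an enzyme that breaks down glutathione. It read 2.27 and 2.33 CPM at day 0, 1.502 and 1.17 in vehicle and 0.641 and 0.452 with the drugs, the last from 8 and 7 reads. Its log2 change was -1.31 ± 0.401 (SE; adjusted p = 0.0249). That call was lost without vehicle replicate 1 (adjusted p = 0.167), drug replicate 1 (0.0703) or drug replicate 2 (0.195), and with DESeq2 (0.160).

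The other effectors were not called between drugs and vehicle. Ppp1r15a encodes GADD34, which brings a phosphatase to eIF2 and so ends the response. Its level was 26.6 and 20.3 CPM at day 0, 9.17 and 8.28 in vehicle and 8.33 and 8.20 with the drugs, and the last 4 overlapped. The log2 change from vehicle to drugs was -0.08, with a 95% interval of -0.45 to 0.29. Sesn2 and Ddit4, both inhibitors of the growth kinase complex mTORC1, had log2 changes of 0.10 (adjusted p = 0.642) and -0.17 (adjusted p = 0.553). Eif4ebp1, a repressor of cap-dependent translation, had -0.34 (adjusted p = 0.0823), and was called lower with only the 2 groups compared (0.0265). Vldlr, a lipoprotein receptor at 0.658 to 1.68 CPM in all libraries, had 0.38 (adjusted p = 0.499).

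**Figure D2:**
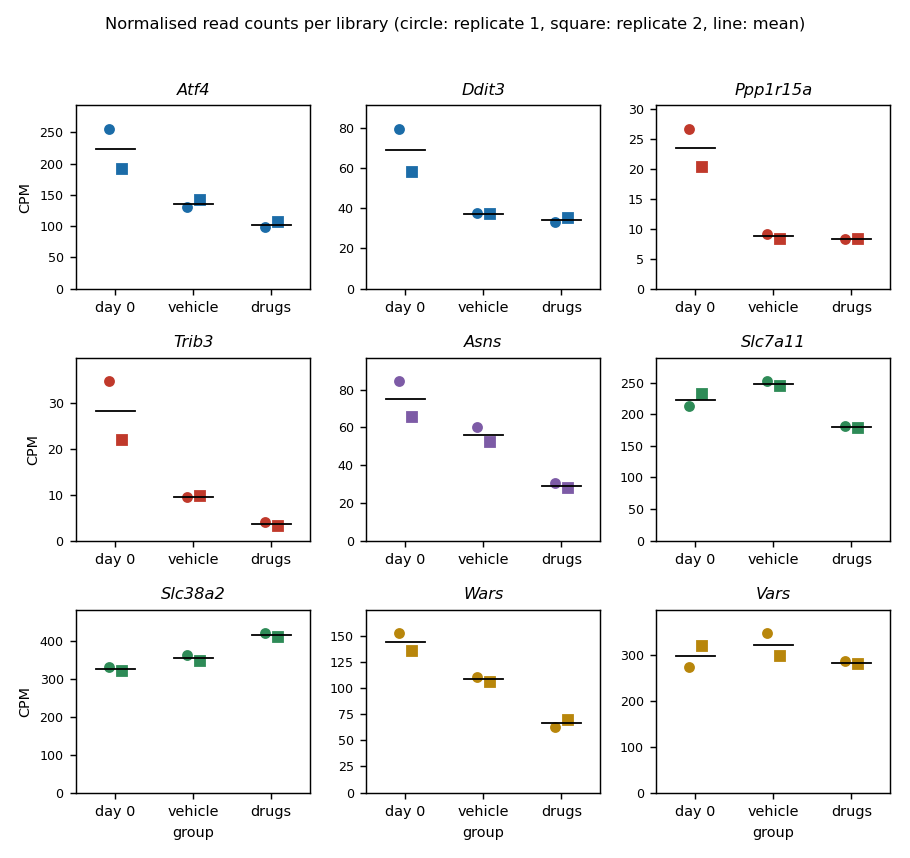
CPM in each of the 6 libraries (points; vertical axes start at 0) for Atf4, Ddit3, Ppp1r15a, Trib3, Asns, Slc7a11, Slc38a2, Wars and Vars in the 3 groups; circles are replicate 1, squares replicate 2, and lines the group means. Ddit3 and Ppp1r15a stand low in all 4 day 3 libraries, Slc7a11 stands low with the drugs only, and Slc38a2 stands highest there.

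Of the 7 enzymes of amino acid synthesis, Asns, Aldh18a1 and Psph were lower with the drugs (42.9%, beside 13.8% of all tested genes). Asns (chr6:7675171-7693182, minus strand) encodes asparagine synthetase, a standard reporter of ATF4 activity whose promoter stretch is shown above. It read 84.4 and 65.7 CPM at day 0, 60.4 and 52.1 in vehicle and 30.5 and 27.9 with the drugs. Both drug libraries were far below the rest, 1.93-fold lower than vehicle, a log2 change of -0.95 ± 0.122 (SE; adjusted p = 6.62e-05). Aldh18a1 encodes the enzyme that makes the precursor of proline and ornithine from glutamate. It read 197 and 180 CPM at day 0, 151 and 137 in vehicle and 98.7 and 101 with the drugs, a log2 change of -0.53 ± 0.0772 (SE; adjusted p = 0.000208). Its 3 groups formed separate steps. Psph, the last enzyme of serine synthesis, read 31.1 and 20.6 CPM at day 0, 17.5 and 17.0 in vehicle and 12.4 and 10.5 with the drugs. Its log2 change was -0.60 ± 0.183 (SE; adjusted p = 0.0244), not called with library totals as the scale (adjusted p = 0.059). Nor was it called without vehicle replicate 1 (log2 change -0.58) or drug replicate 2 (-0.47).

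The first enzymes of the serine pathway were not called in the main fit. Phgdh had a log2 change of -0.16 (adjusted p = 0.0938) and Psat1 -0.18 (adjusted p = 0.0875), and both drug libraries lay below vehicle for each gene. Psat1 was called lower with only the 2 groups compared (adjusted p = 0.0301), and Phgdh with library totals after Rn45s was removed (0.0469). Aldh1l2, a mitochondrial folate enzyme, read 1.42 and 1.34 CPM with vehicle and 0.881 and 0.710 with the drugs, a log2 change of -0.80 ± 0.519 (SE; adjusted p = 0.262). Pycr1, which completes proline synthesis, had -0.13 (adjusted p = 0.812). Its sign turned to 0.037 without vehicle replicate 2 and to 0.37 without drug replicate 2.

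The 6 amino acid transporters held 4 lower members (66.7%, beside 13.8% of all tested genes) and the only higher one. Slc7a5 (LAT1) carries large neutral amino acids as a dimer with the heavy chain Slc3a2. It read 208 and 208 CPM at day 0, 194 and 158 in vehicle and 124 and 129 with the drugs, a log2 change of -0.48 ± 0.0892 (SE; adjusted p = 0.00141). The drug libraries stood lowest, and vehicle replicate 2 lay between them and the other 3. Slc3a2 read 148 and 134 CPM at day 0, 110 and 112 in vehicle and 89.6 and 98.6 with the drugs. Its log2 change was -0.24 ± 0.0771 (SE; adjusted p = 0.0329). That call was lost without any 1 of the 4 day 3 libraries: without vehicle replicates 1 and 2 the adjusted p was 0.0688 and 0.0896, and without drug replicates 1 and 2 it was 0.317 and 0.0619. DESeq2 did not call Slc3a2 either (adjusted p = 0.0792), nor did the fit with a replicate block (adjusted p = 0.0699).

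Slc7a11 (chr3:50364936-50443613, minus strand) encodes the cystine importer xCT, which feeds glutathione synthesis and also pairs with Slc3a2. It read 212 and 233 CPM at day 0, 252 and 244 in vehicle and 181 and 179 with the drugs. Vehicle was thus the highest group and the drugs the lowest, a log2 change of -0.46 ± 0.0725 (SE; adjusted p = 0.000345). Slc7a1 (CAT1), an importer of arginine and lysine, read 335 and 342 CPM at day 0, 322 and 277 in vehicle and 212 and 208 with the drugs. Its log2 change was -0.52 ± 0.0816 (SE; adjusted p = 0.000389). Slc1a5, a glutamine carrier, was not called, at -0.13 with a 95% interval of -0.32 to 0.056.

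Slc38a2 (SNAT2; chr15:96687392-96699698, minus strand), an importer of small neutral amino acids and a known ATF4 target, went the other way. It read 332 and 320 CPM at day 0, 363 and 347 in vehicle and 420 and 411 with the drugs. Both drug libraries were above all others. The log2 change from vehicle was 0.23 ± 0.0718 (SE; adjusted p = 0.0293). The call did not hold without vehicle replicate 1 (adjusted p = 0.0687) or 2 (0.184), without drug replicate 1 (0.238) or 2 (0.158), with library totals as the scale (0.0519) or with a replicate block (0.0647).

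The tRNA synthetases, which attach each amino acid to its tRNA, moved mostly together. Of 15 cytosolic members 12 were lower with the drugs (80%, beside 13.8% of all tested genes) and none higher. For all 15 both drug libraries lay below both vehicle libraries, as they did for 33.7% of all tested genes. Their median log2 change was -0.41. Their summed level was 3137 and 3136 CPM at day 0, 2848 and 2647 in vehicle and 2152 and 2153 with the drugs. Wars, the tryptophan enzyme (chr12:108860030-108894174, minus strand), had the largest change of the 15. It read 152 and 135 CPM at day 0, 110 and 106 in vehicle and 63.0 and 69.2 with the drugs, 1.63-fold lower than vehicle (log2 change -0.71 ± 0.0811 SE; adjusted p = 2.51e-05). Aars, the alanine enzyme, read 311 and 318 CPM at day 0, 265 and 248 in vehicle and 177 and 176 with the drugs, a log2 change of -0.54 ± 0.0711 (SE; adjusted p = 8.79e-05). Its exons share 532 bp with Exosc6 on the same strand, 10.9% of the length of Aars, and Exosc6 averaged 15.8 CPM.

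The next 5 synthetases had log2 changes between -0.43 and -0.52. Cars (cysteine) read 53.9 and 48.0 CPM at day 0, 45.8 and 43.1 in vehicle and 32.6 and 29.6 with the drugs, a log2 change of -0.52 (adjusted p = 0.000926). Lars (leucine) read 238 and 234 CPM at day 0, 218 and 194 in vehicle and 148 and 152 with the drugs, a change of -0.46 (adjusted p = 0.000533). Iars (isoleucine) read 240 and 233 CPM at day 0, 222 and 200 in vehicle and 157 and 153 with the drugs, a change of -0.45 (adjusted p = 0.000563). For these 3 genes both drug libraries lay below the other 4. Gars (glycine) read 197 and 176 CPM at day 0, 164 and 153 in vehicle and 117 and 118 with the drugs, a change of -0.43 (adjusted p = 0.000857). Tars (threonine) read 129 and 116 CPM at day 0, 108 and 108 in vehicle and 83.6 and 77.4 with the drugs, also -0.43 (adjusted p = 0.000892). For all 5 genes the 3 groups did not overlap, and of the 2 steps only that from vehicle to drugs passed the test.

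Yars (tyrosine) read 102 and 98.2 CPM at day 0, 82.8 and 77.9 in vehicle and 58.8 and 62.0 with the drugs, a log2 change of -0.41 (adjusted p = 0.000831). The remaining called synthetases had smaller changes, and each lost its call in some fits without a single library. Such fits leave 1 library in a group. Over all alternatives the log2 change ranged from -0.38 to -0.33 for Kars and from -0.41 to -0.25 for Eprs. It ranged from -0.35 to -0.25 for Nars and from -0.25 to -0.20 for Dars. Kars (lysine) read 170 and 182 CPM at day 0, 165 and 161 in vehicle and 126 and 129 with the drugs (log2 change -0.35, adjusted p = 0.00212), and was not called without drug replicate 1 (adjusted p = 0.0503). Eprs, which loads both glutamate and proline, read 531 and 550 CPM at day 0, 498 and 447 in vehicle and 377 and 379 with the drugs (log2 change -0.32, adjusted p = 0.00714). Its call was lost without vehicle replicate 1 (adjusted p = 0.0829), drug replicate 1 (0.0953) or drug replicate 2 (0.0788).

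Nars (asparagine) read 237 and 229 CPM at day 0, 189 and 178 in vehicle and 152 and 147 with the drugs (log2 change -0.29, adjusted p = 0.00638). It lost its call without vehicle replicate 1 (adjusted p = 0.0513), drug replicate 1 (0.0655) or drug replicate 2 (0.0961). Dars (aspartate) was the called synthetase with the smallest change. It read 206 and 224 CPM at day 0, 199 and 207 in vehicle and 172 and 177 with the drugs (log2 change -0.22, adjusted p = 0.0337). It was not called without any 1 of the 4 day 3 libraries (adjusted p from 0.0662 to 0.252), with DESeq2 (0.054) or with a replicate block (0.0599). Mars (methionine), Sars (serine) and Vars (valine) missed the threshold in the main fit. With only the 2 groups compared, all were called lower (adjusted p = 0.0346, 0.0251 and 0.0455, in that order). Their 95% intervals were -0.31 to -0.026 for Mars, -0.38 to 0.00096 for Sars and -0.39 to 0.011 for Vars. These intervals hold the changes of the called members Nars and Dars and not those of Wars, Aars, Cars, Lars, Iars, Gars, Tars and Yars.

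**Figure D3:**
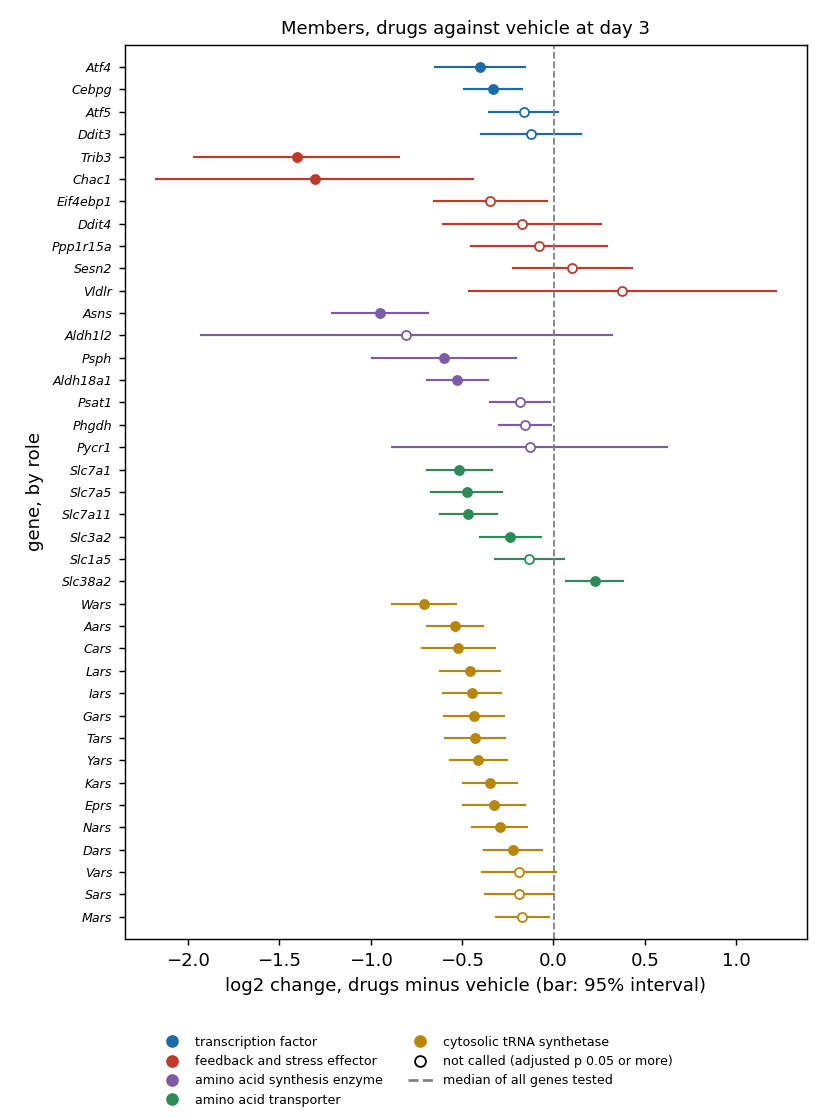
Log2 change from vehicle to drugs for the 39 tested members, by role, with 95% intervals; filled points passed an adjusted p below 0.05, and the dashed line is the median of all genes tested. All 15 synthetase points lie below 0, and the stress effectors spread from -1.40 for Trib3 to 0.38 for Vldlr.

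The other genes of the pathway, on lists of 97 genes in all, moved in part only. Of the eIF2 kinases and the kinase activator Gcn1l1, 0 of 5 were called by edgeR and 0 by DESeq2, with 1 lower and 1 higher at an unadjusted p below 0.05. Without day 0 replicate 1, day 0 replicate 2 or vehicle replicate 2, 1 was called in each direction. Eif2ak3 (PERK) had a log2 change of 0.25 (adjusted p = 0.0621), Eif2ak2 (PKR) -0.22 (0.0504) and Eif2ak4 (GCN2) -0.15 (0.149). Of 9 genes for eIF2, its exchange factor eIF2B and the phosphatase subunit Ppp1r15b, 7 were lower and none higher (median -0.32). Of all tested genes 13.8% were lower and 18.1% higher. Eif2s2, the beta subunit of eIF2, read 221 and 208 CPM with vehicle and 157 and 159 with the drugs, a change of -0.44 (adjusted p = 0.000398), and Eif2b4 changed by -0.43 (adjusted p = 0.00294). Without drug replicate 1 or 2 fewer of the 9 were called, in fits that leave 1 library in the drug group. Over all alternatives the changes ranged from -0.50 to -0.39 for Eif2s2 and from -0.49 to -0.38 for Eif2b4.

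Of 23 other reported ATF4 targets 17 were tested, and 7 of them were lower (41.2%) and none higher (median -0.33). The counts of this list and the next stand beside 13.8% lower and 18.1% higher of all tested genes. Ero1l, an oxidase that forms disulfide bonds in the endoplasmic reticulum, read 479 and 448 CPM with vehicle and 276 and 281 with the drugs, a log2 change of -0.73 (adjusted p = 1.09e-05). Shmt2, a mitochondrial serine and folate enzyme, changed by -0.47 (adjusted p = 0.000206). Without drug replicate 1 the count of 7 became 4. Without either day 0 library 4 other genes of this list were called higher, and without vehicle replicate 2 this count was 1. Of the 6 remaining cytosolic synthetases Hars and Farsb were lower, each by -0.35 (adjusted p = 0.00233 and 0.00339), and Farsb was not called without drug replicate 1 (adjusted p = 0.0659). Of the 3 scaffold genes of the multisynthetase complex, 0 were called by edgeR or DESeq2, with 1 lower at an unadjusted p below 0.05.

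Of 17 mitochondrial synthetases 2 were lower (Mars2 and Tars2) and 2 higher, Hars2 among them. That is 11.8% in each direction, under the 13.8% and 18.1% of all tested genes, and the median was -0.037. Mars2 had a log2 change of -0.43 (adjusted p = 0.0116), not called without vehicle replicate 2, drug replicate 1 or drug replicate 2 (adjusted p from 0.0542 to 0.102). The calls of Tars2 (-0.21, adjusted p = 0.0497) and Hars2 (0.28, 0.0416) were lost without any 1 of the 4 day 3 libraries. Of 14 tested other amino acid transporters, 4 were lower and 1 higher, with 2 lower without vehicle replicate 1. Slc1a4, a carrier of alanine, serine and cysteine, read 11.8 and 11.3 CPM with vehicle and 5.69 and 5.23 with the drugs, a change of -1.08 (adjusted p = 0.000124). Slc6a6, the taurine carrier, changed by -0.36 (adjusted p = 0.00344), and Slc38a7, a glutamine carrier of the lysosome, by 0.70 (adjusted p = 0.00126).

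The ATF6 and XBP1 branch of the unfolded protein response, which controls chaperones rather than amino acid genes, had 5 of 19 genes higher (26.3%, beside 18.1% of all tested genes) and 0 lower (median 0.14), with 0 lower at an unadjusted p below 0.05 as well. Ern1, which encodes the sensor IRE1, stood at 239 and 264 CPM in the day 0 libraries. Vehicle was its lowest group, at 200 and 182 CPM, while the drug libraries (252 and 256 CPM) lay between the day 0 values. From vehicle to drugs its log2 change was 0.41 (adjusted p = 0.00145), so this rise did not go beyond the day 0 level. Atf6 changed by 0.31 (adjusted p = 0.00567), with no call without vehicle replicate 2 (adjusted p = 0.0554) or drug replicate 1 (0.0798). The count of 5 was 2 without vehicle replicate 1, 3 without vehicle replicate 2, 1 without drug replicate 1 and 2 without drug replicate 2. It was 3 with DESeq2, with library totals and with a replicate block.

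**Figure D4:**
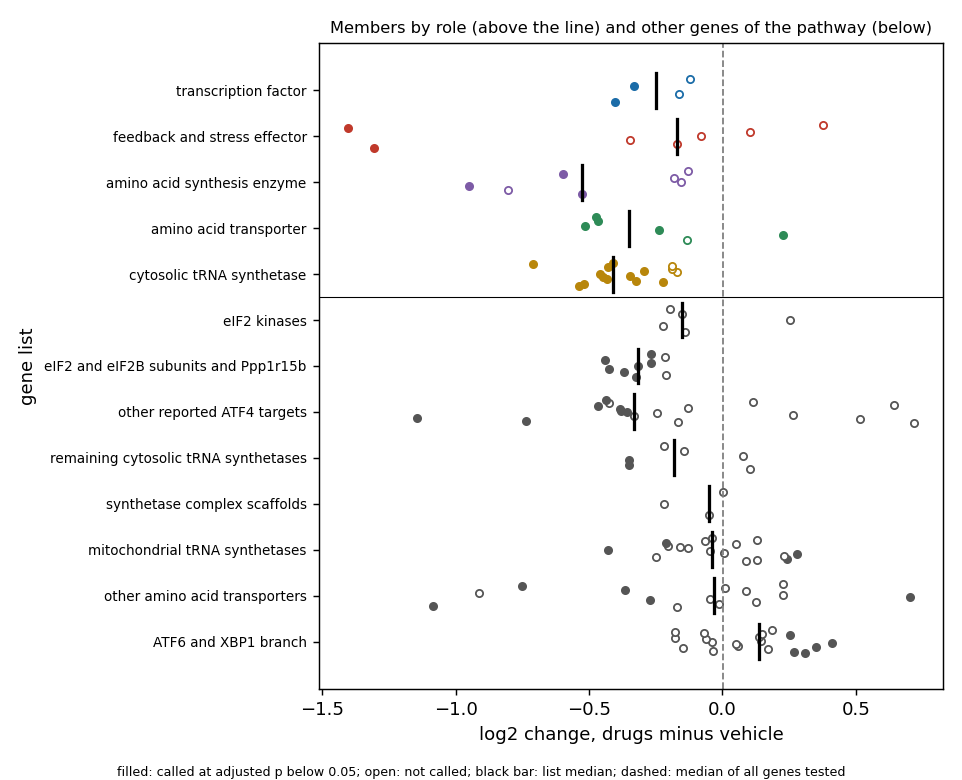
Log2 change from vehicle to drugs for each tested gene (points), grouped as the members by role and the 8 other lists of the pathway, with the median of each group marked. Medians lie below 0 for the 5 member roles, at -0.32 for the eIF2 and eIF2B genes, near 0 for the mitochondrial synthetases (-0.037) and above 0 for the ATF6 and XBP1 branch (0.14).

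The next comparison asks what 3 days in vehicle did to the same genes. Here the stress effectors and transcription factors moved more than the synthetases. Of the 39 members 18 were lower than at day 0 and 0 higher (0 also with DESeq2, and 1 at an unadjusted p below 0.05), while 3.99% of all tested genes were lower and 3.75% higher. The median log2 change was -0.29, beside -0.017 over all genes. By role 3 of 4 transcription factors, 4 of 7 effectors, 5 of 7 enzymes, 1 of 6 transporters and 5 of 15 synthetases were lower. The effectors had a median of -0.70 and the synthetases of -0.20. Without day 0 replicate 1 the median of the members was -0.238, beside -0.00693 over all genes. Without vehicle replicate 2 it was -0.267, beside -0.00465. Fewer members were called in both fits, each of which leaves 1 library in a group. With library totals in place of TMM, which count Rn45s in the scale, 11 members were lower and 3 higher, and the median of all genes moved to 0.10. With Rn45s removed the library totals gave 18 and 0.

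Ppp1r15a changed by -1.44 ± 0.148 (SE; adjusted p = 0.000133), Trib3 by -1.58 ± 0.190 (SE; 0.000421) and Aldh1l2 by -2.19 ± 0.339 (SE; 0.00199) from day 0 to vehicle. These 3 alone were called against a minimum change of 1.5-fold, where 0.292% of all tested genes were lower. Aldh1l2 read 8.14 and 4.16 CPM at day 0, so its replicates were far apart, but both were above all later libraries. Ddit3 changed by -0.89 (adjusted p = 0.000852), Atf4 by -0.72 (0.00197), Eif4ebp1 by -0.70 (0.00617), Sesn2 by -0.67 (0.0140) and Atf5 by -0.55 (0.00193). Replicate 1 lay above replicate 2 at day 0 for each of these but Atf5. Eif4ebp1 was not called without day 0 replicate 1 (adjusted p = 0.0554) or vehicle replicate 1 (0.0555), and Sesn2 not without day 0 replicate 1 (0.108) or vehicle replicate 2 (0.0763).

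Among enzymes and transporters, Aldh18a1 changed by -0.39 (adjusted p = 0.00775) and Slc3a2 by -0.35 (0.0149). Aldh18a1 was not called without vehicle replicate 2 (0.0510), nor Slc3a2 without day 0 replicate 1 (0.102) or vehicle replicate 1 (0.0851). Psph (-0.60, adjusted p = 0.0428), Asns (-0.42, 0.0379) and Phgdh (-0.24, 0.0420) lost their calls without day 0 replicate 1 (0.417, 0.314 and 0.132), and likewise without vehicle replicate 2, either drug library and, for Psph and Phgdh, vehicle replicate 1. DESeq2 called none of the 3 (0.0893, 0.0771 and 0.144), nor did the fit of only the 2 groups compared (0.0723, 0.0765 and 0.137). The synthetases called were Sars (-0.48, adjusted p = 0.00503), Wars (-0.41, 0.00699), Nars (-0.34, 0.00966), Yars (-0.32, 0.0154) and Aars (-0.29, 0.0234). Without vehicle replicate 2, Nars (0.0569), Yars (0.0740) and Aars (0.112) were not called. Yars was also lost without day 0 replicate 1 (0.0790), and Aars without vehicle replicate 1 (0.0617), drug replicate 1 (0.0907) or drug replicate 2 (0.0790). With a replicate block Aars (0.0755), Slc3a2 (0.0505), Phgdh (0.106) and Psph (0.0503) were not called. DESeq2 did not call Yars (0.0704). With only the 2 groups compared Yars (0.0560) and Aars (0.096) were not called. Library totals as the scale lost Wars (0.0545), Aars (0.0661), Yars (0.0922), Slc3a2 (0.1075), Asns (0.161), Phgdh (0.262) and Psph (0.136). Slc7a11 and Slc38a2 had positive changes that missed the threshold, 0.16 (adjusted p = 0.195) and 0.12 (0.299).

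Against day 0, the drug libraries showed 35 of 39 members lower and Slc38a2 higher (log2 change 0.35, adjusted p = 0.00179), where 21.2% of all tested genes were lower and 22.7% higher. The median was -0.65. This comparison shares its libraries with the other 2 and is their sum, so it is no separate support for them. The largest changes were those of Aldh1l2 (-3.00 ± 0.370 SE, adjusted p = 3.76e-05) and Trib3 (-2.99 ± 0.220 SE, 3.63e-07), followed by Chac1 (-2.08), Ppp1r15a (-1.52), Asns (-1.37) and Psph (-1.20). Atf4 and Wars each changed by -1.12, Eif4ebp1 by -1.04 and Ddit3 by -1.02. Vldlr (0.76), Pycr1 (-0.54) and Vars (-0.07) were not called. Ddit4 (-0.52) lost its call with DESeq2 (adjusted p = 0.247), library totals (0.117) and a replicate block (0.0594). Slc1a5 (-0.39) lost its call with library totals (0.0515). Calls were also lost for Ddit4 without day 0 replicate 1 or either drug library and for Slc7a11 without either drug library. The same held for Dars without drug replicate 1 and Sesn2 without drug replicate 2.

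Set side by side, the members fell into a few patterns of calls. The share of all tested genes with each pattern was not counted, so these counts describe the members only. At the single steps 3.99% (day 0 to vehicle) and 13.8% (vehicle to drugs) of all tested genes were lower. Lower at both steps were 10 members: Atf4, Trib3, Asns, Psph, Aldh18a1, Slc3a2, Wars, Aars, Nars and Yars. Lower with the drugs against vehicle but not called from day 0 to vehicle were 13: Cebpg, Chac1, Slc7a5, Slc7a11, Slc7a1, Gars, Cars, Iars, Lars, Tars, Eprs, Kars and Dars. Lower from day 0 to vehicle but not called between drugs and vehicle were 8: Atf5, Ddit3, Ppp1r15a, Sesn2, Eif4ebp1, Phgdh, Aldh1l2 and Sars. A call at one step and not at the other does not show that the steps differ. The difference of the steps, drugs minus vehicle less vehicle minus day 0, was therefore tested, a contrast chosen after the values were seen. It was called for 3 of 39 members (7.69%), beside 13.7% of all tested genes.

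The 3 were Ppp1r15a, Ddit3 and Slc7a11. For Ppp1r15a the difference of the log2 changes was 1.35 ± 0.283 (SE; adjusted p = 0.00693), since it fell from day 0 to vehicle and had a change of -0.08 between drugs and vehicle. It was not called without vehicle replicate 2 (adjusted p = 0.0568). For Ddit3 the difference was 0.77 ± 0.218 (SE; adjusted p = 0.0340). That call was lost without vehicle replicate 1 (0.140) or 2 (0.121), without drug replicate 1 (0.067) or 2 (0.103), with DESeq2 (0.0587) and with a replicate block (0.0582). For Slc7a11 it was -0.62 ± 0.124 (SE; adjusted p = 0.00498), not called without vehicle replicate 1 (0.055). For Atf4 the difference was 0.32 (adjusted p = 0.318) and for Trib3 0.18 (0.815). None of the 3 was called when the difference had to exceed 1.5-fold.

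Divided by gene length, levels could be compared between members. On the scale of CPM per kb, Psat1 was the highest member with vehicle, at 228 ± 11.5 (SD, n = 2), followed by Eprs at 97.5 ± 7.38, Dars at 81.0 ± 2.11, Atf4 at 78.7 ± 4.45, Slc38a2 at 76.7 ± 2.42 and Vars at 76.6 ± 8.13. The last 4 did not differ beyond their spread. At day 0 Atf4 (129 ± 26.2) and Eprs (111 ± 2.75) followed Psat1 and did not differ beyond their spread. With the drugs Slc38a2 was second, at 89.8 ± 1.40, while Atf4 stood at 59.4 ± 3.36. The lowest tested members with vehicle were Vldlr at 0.131, Aldh1l2 at 0.229, Chac1 at 0.851 and Pycr1 at 0.895, so their changes rest on few reads.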

How the data were processed

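Poly(A) RNA of 6 libraries (3 groups of 2) was sequenced. The authors deposited whole-number counts of reads per gene, a table the labels call featurecount, with gene positions and a Length column in base pairs (another unit, used only for CPM per kb). The submitters' processing notes name STAR 2.7.0f, deepTools 3.0.2 and mm10. Strand use, treatment of multiply matching reads and the gene annotation are unknown (not given in the sources used here). Overlapping genes and close gene copies are therefore uncertain. Of the 23337 genes 8069 were at 0 everywhere, and filterByExpr kept 11283.

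A single edgeR 4.0.16 model (R 4.3.3) was fitted to the counts of all groups, with TMM factors and the quasi-likelihood F test. The Benjamini-Hochberg adjustment ran over all 11283 genes with a threshold of 0.05. The model left 3 residual degrees of freedom, and the common biological coefficient of variation was 0.0592. SEs were derived from the F statistic. DESeq2 1.42.0 and other scales, filters and fits, and fits without each library, were alternatives. A fit without 1 library leaves 1 library in that group, and the number of all genes called moved as well. A call lost there does not show that 1 library carried the change. The test was tried on simulated data. Lists are described by counts and medians, with no list test. The precision of each value is limited by depth and by 2 libraries per group.

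The members and lists were chosen with earlier results of these data known. The rule for names gives per-library values for members called between drugs and vehicle and for Atf4, Atf5, Ddit3 and Cebpg, and names up to 2 called genes per direction of each other list. A gene that this rule selected is not reported here. Other members are given by change, and per-library values of Ppp1r15a and Aldh1l2 were added after they were seen. Deviations from group means (log2, pseudocount 0.5 CPM) of libraries with the same number correlated at 0.112 between drugs and vehicle, -0.281 between vehicle and day 0 and -0.0725 between drugs and day 0. The numbers were therefore not taken as pairs. Promoters come from RefSeq (GRCm38.p6). Their starts can differ from the deposited gene starts.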

Additional observations from a re-analysis of the deposited data

How the results depend on the processing

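Of the calls, 14 of 24 between drugs and vehicle, 7 of 18 between vehicle and day 0 and 31 of 36 between drugs and day 0 held under every alternative except the minimum change of 1.5-fold, and no called member changed sign. Between drugs and vehicle the median log2 change of the members ranged from -0.378 to -0.322 when single libraries were left out. That of all genes ranged from -0.0107 to -0.00119. Calls of members were both lost and gained in these fits, each of which leaves 1 library in a group. With library totals or a replicate block 0 members were higher. Against a minimum of 1.5-fold 2 were lower and 0 higher, beside 115 and 599 of all tested genes. With only the 2 groups compared 28 were lower and 1 higher, beside 1945 and 2215 of 11149 genes tested. Some alternative called 6 members that the main fit did not call. Between vehicle and day 0 there were 14 such members, counting the crossed block described below. Between vehicle and day 0 single libraries moved the number lower between 10 and 23. It was 11, with 3 higher, with library totals, and 3 with the minimum fold. With library totals 216 genes of the whole table were lower and 1741 higher, against 450 and 423 with TMM. Between drugs and day 0 single libraries moved the median of the members between -0.685 and -0.59. The minimum fold left 12 lower and 0 higher, beside 239 and 647 of all tested genes. The difference of the steps was called for 2 to 8 members without single libraries, 8 with library totals, 5 without the filter and 0 with the minimum fold.

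With a replicate block 21 members were lower between drugs and vehicle, 14 between vehicle and day 0 and 34 between drugs and day 0. A block on crossed numbers between vehicle and day 0 called 29 members lower and 3 higher, but no label ties these libraries into pairs and the pairing was chosen after seeing the data, from their negative correlation, so no support is drawn from it. Counts of the other lists and Rn45s removed with library totals were also added after seeing the data. Signs turned only in uncalled members. Between drugs and vehicle these were Sesn2 (-0.084) and Pycr1 (0.037) without vehicle replicate 2, and Pycr1 (0.37) without drug replicate 2, in ranges over left-out libraries of -0.084 to 0.31 for Sesn2 and -0.75 to 0.37 for Pycr1. Between vehicle and day 0 they were Cebpg (0.044), Kars (0.00995) and Dars (0.045) with library totals and Vldlr without vehicle replicate 1 (range -0.0024 to 0.72). Between drugs and day 0 it was Vars, at 0.026 with library totals and 0.036 without day 0 replicate 2 (range -0.18 to 0.036). Causes of these shifts were not tested. Depth limits Chac1, Aldh1l2, Pycr1 and Vldlr, which had 7 to 42 reads in each day 3 library.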
